A study of Mus musculus with 6 samples.

Results

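Pericytes and vascular smooth muscle cells, together called mural cells, were followed here through 10 genes that mark them in the retina. The genes were listed by name and not by a rule on measured values, but earlier results of these data were known when they were chosen. 4 of them are pericyte genes (Rgs5, Cspg4, Kcnj8 and Abcc9) and 6 encode parts of the contractile apparatus (Acta2, Myl9, Myh11, Des, Cnn1 and Tagln). All 10 were in the table of 32285 genes, and all 10 were among the 20021 genes tested, which had a total count of at least 10. RNA was sequenced from whole retinas of C57BL/6J mice at postnatal day (PN) 18, with 3 libraries of the OIR-CIH group and 3 of the OIR-Norm group. Pups of both groups had first gone through oxygen-induced retinopathy (OIR): they stayed with their mothers in 75% O2 for 5 days from PN8, and returned to room air at PN13. OIR-CIH pups then received chronic intermittent hypoxia (CIH) for 10 h of each day, as 266 cycles of 135 s in which O2 went from 20.95% down to 5% and back, whereas OIR-Norm pups received the gas flow and its noise at a constant O2 level. The comparison asks how CIH changed these genes in a retina that was already ischemic. It holds no retina without OIR.

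Mural cells wrap the endothelial tube of retinal vessels. Smooth muscle cells ring the arterioles and set their diameter by contraction, while pericytes sit on capillaries within the basement membrane that they share with endothelial cells. Endothelial cells recruit pericytes by secreting PDGF-B, which acts on the receptor PDGFRB on the pericyte, and Notch ligands on the endothelium promote the mural fate through Notch3. In the mouse OIR model, hyperoxia removes the capillaries of the central retina, and vessels grow again after the return to room air.

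Total counts lay between 26289905 and 38010151 per library, and the groups overlapped. The retina was recognisable in every library: Sag, the rod arrestin, stood between 3634 and 5089 CPM (counts scaled to a common library total), and Glul, the glutamine synthetase of Müller glia, between 1601 and 2071 CPM. The OIR-Norm replicate 2 library stood apart: its lens marker genes summed to 528 CPM, while the other libraries had between 16.8 and 85.7 CPM. 3 eyes were dissected per group. Xist, expressed from the inactive X chromosome of females, and 4 Y-linked genes were nevertheless present together in all 6 libraries, so how many animals each library holds is not known, and SD and n refer to libraries. The mix differed between libraries: Xist stood at 298 CPM in OIR-Norm replicate 1, at 1653 CPM in OIR-Norm replicate 2 and between 724 and 1092 CPM in the others, and the Y-linked gene Ddx3y at 61.1 CPM in OIR-Norm replicate 1 and 25.3 CPM in OIR-Norm replicate 2. Its part in the mural values was not tested. Nothing in the labels says that the libraries of a group came from separate animals, so p-values measure only the spread between libraries. Levels below are CPM after TMM scaling, which sets the libraries to a common scale by a trimmed mean over genes. A fold change is the log2 fold change of OIR-CIH relative to OIR-Norm fitted by edgeR, so a negative value is a lower level in OIR-CIH.

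None of the 10 mural genes changed by the threshold used, an adjusted p under 0.05 with an absolute log2 fold change over 0.5. edgeR called 0 of 10, where 0.315% of all genes tested were called, and 0.215% were called lower in OIR-CIH. All 10 were nevertheless fitted lower in OIR-CIH. Their median log2 fold change was -0.51, against -0.0028 for all genes tested, of which 50.5% were fitted lower. 4 of the 10, Rgs5, Abcc9, Myh11 and Cnn1, had an unadjusted p under 0.05 in the lower direction, where 7.01% of all genes did. DESeq2 called 1 of the 10, Myh11, where it called 0.858% of its genes. edgeR on all genes with 1 count or more called 2, Rgs5 and Myh11, where 0.872% of genes were called. limma called 0 of the 10 where 0.33% of genes were called, as did edgeR with the filterByExpr filter (0.364% of genes), with median-of-ratios scaling (0.32%) and with a replicate block (0.42%). In bulk retina, fewer mural cells and less RNA per mural cell cannot be told apart.

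Among the pericyte genes, Rgs5 had the highest level. It encodes a GTPase-activating protein that ends signalling by G protein-coupled receptors, and it is a classical pericyte marker. Rgs5 stood at 57.0, 73.6 and 96.5 CPM in the OIR-CIH libraries and at 107, 166 and 72.5 CPM in the OIR-Norm libraries. OIR-Norm replicates 1 and 2 were above all OIR-CIH libraries, but OIR-Norm replicate 3 was below 2 of them, so the groups overlapped. The means were 75.7 ± 19.8 CPM in OIR-CIH and 115 ± 47.5 CPM in OIR-Norm (SD, n = 3 libraries each), a ratio of 0.655. The log2 fold change was -0.61 (95% interval -1.12 to -0.086, edgeR adjusted p = 0.323), not past the threshold. Without OIR-Norm replicate 2 the log2 fold change of Rgs5 was -0.25 and without OIR-Norm replicate 3 it was -0.85, neither of them called.

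Abcc9 and Kcnj8 encode the partners of the vascular ATP-sensitive potassium channel, the sulfonylurea receptor SUR2 and the pore subunit Kir6.1. Both genes lie on chromosome 6. Abcc9 stood at 2.32, 2.64 and 3.47 CPM in OIR-CIH and at 4.58, 10.1 and 1.88 CPM in OIR-Norm, where the highest and lowest libraries differed 5.36-fold. That was the widest spread within a group among the 10 genes, and both the highest and the lowest of the 6 libraries belonged to OIR-Norm. The log2 fold change of Abcc9 was -0.95 (95% interval -1.88 to -0.030, edgeR adjusted p = 0.366), and it was -0.19 without OIR-Norm replicate 2. Kcnj8 stood at 1.26, 1.46 and 1.77 CPM in OIR-CIH and at 1.79, 3.44 and 1.29 CPM in OIR-Norm, with a log2 fold change of -0.51 (95% interval -1.21 to 0.18, edgeR adjusted p = 0.521). As with Abcc9, OIR-Norm replicate 2 was highest, while OIR-Norm replicate 3 lay within the range of OIR-CIH. Without OIR-Norm replicate 2, the log2 fold change of Kcnj8 was -0.025.

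Cspg4 encodes the NG2 proteoglycan, which is carried by pericytes and also by oligodendrocyte precursor cells. It stood at 3.49, 2.67 and 3.76 CPM in OIR-CIH and at 3.60, 6.17 and 2.20 CPM in OIR-Norm. The OIR-CIH libraries lay between the extremes of OIR-Norm, and the difference was smaller than the spread between libraries (log2 fold change -0.26, 95% interval -0.90 to 0.38, edgeR adjusted p = 0.749). Without OIR-Norm replicate 2 its fitted direction turned, to 0.19.

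**Figure D1:**
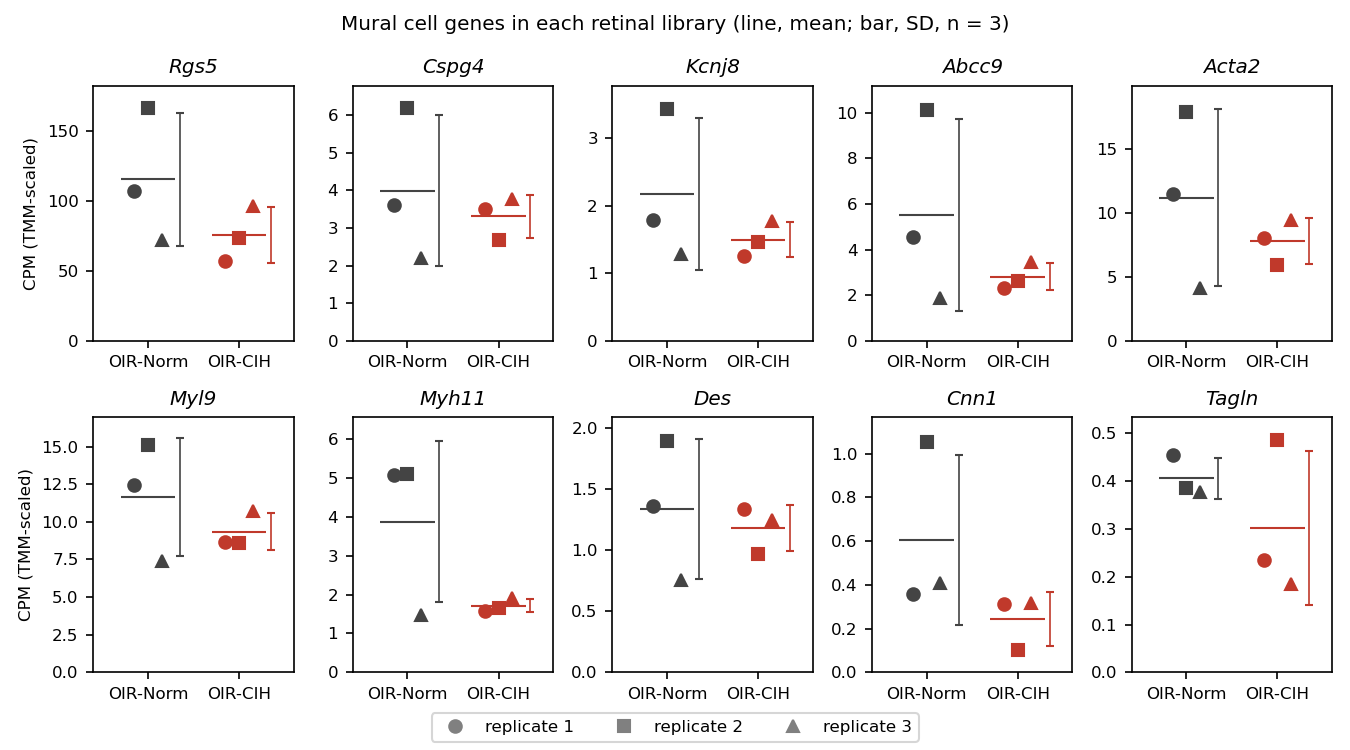
Level of each of the 10 mural genes in each library, in TMM-scaled CPM on a linear axis from 0 with its own scale per gene. Points are libraries with a shape for each replicate number, horizontal lines are group means and bars are the SD (n = 3 libraries per group). OIR-Norm replicate 2 is the highest of the 6 libraries for 9 of the 10 genes, and OIR-Norm replicate 3 lies within or below the OIR-CIH points for all but Cnn1.

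Of the contractile genes, Myh11 had the lowest adjusted p. It encodes the smooth muscle myosin heavy chain, the motor of the contractile apparatus and the most restricted smooth muscle marker of the list. Myh11 stood at 1.57, 1.66 and 1.91 CPM in OIR-CIH, a narrow range, and at 5.06, 5.09 and 1.48 CPM in OIR-Norm. OIR-Norm replicates 1 and 2 were thus far above all OIR-CIH libraries, whereas OIR-Norm replicate 3 was below all of them. The means were 1.71 ± 0.173 and 3.88 ± 2.08 CPM (SD, n = 3 libraries each), a ratio of 0.442. The log2 fold change was -1.16 (95% interval -1.95 to -0.38), with an unadjusted edgeR p of 0.00697 and an adjusted p of 0.241. The call on Myh11 therefore depended on the fit. DESeq2 gave the same log2 fold change of -1.17 with an adjusted p of 0.0466, edgeR on all genes with at least 1 count gave an adjusted p of 0.0221, and edgeR without OIR-Norm replicate 3 gave -1.56 with an adjusted p of 0.00369; over all alternatives run its edgeR, DESeq2 or limma adjusted p ranged from 0.00369 to 0.557.

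Acta2, the smooth muscle alpha-actin, stood at 8.04, 5.89 and 9.45 CPM in OIR-CIH and at 11.5, 17.9 and 4.12 CPM in OIR-Norm. The log2 fold change was -0.51 (95% interval -1.30 to 0.28, edgeR adjusted p = 0.588), and without OIR-Norm replicate 2 it was 0.0065. It is a close paralogue of the muscle actin genes Actg2 (0.22 to 1.09 CPM), Acta1 (1.40 to 2.18 CPM) and Actc1 (3.12 to 4.32 CPM), and how reads shared by these genes were counted was not examined. Myl9, the regulatory light chain of smooth muscle myosin, stood at 8.67, 8.56 and 10.7 CPM in OIR-CIH and at 12.4, 15.1 and 7.41 CPM in OIR-Norm. It had a log2 fold change of -0.32 (95% interval -0.77 to 0.14, edgeR adjusted p = 0.554). In both genes OIR-Norm replicate 2 was the highest and OIR-Norm replicate 3 the lowest library, with the 3 OIR-CIH libraries in between.

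Many contractile genes are regulated by serum response factor through the CArG box, so the start sites of the 2 most abundant contractile members are shown. Whether this regulation had a part in the library pattern was not tested, and pericyte and endothelial genes shared much of that pattern. Reference sequence of the start sites was taken from RefSeq (GRCm38.p6), which had an entry of 300 bases, 250 before and 50 after the start, for 8 of the 10 genes. Tagln and Myh11 were not searched. The CArG box was present in 1 of the 8, Myl9, and in 1.63% of 32851 promoters of all genes. A looser form, with exactly 5 of its 6 core bases A or T, was present in 2, Acta2 and Myl9, and in 8.5% of all promoters. Both strands were searched. For Myl9, 194 bases are printed 5′ to 3′, chr2:156775214-156775407 on the plus strand (GRCm38.p6). They end just before an annotated start that lies upstream of the RefSeq start of the entry. Positions are counted from the RefSeq start, which the print does not reach. In capitals are the match to the CArG box, which starts at position -161, and the looser match, at position -99. For Acta2, windows of 30 bases around 2 looser matches are shown, chr19:34255438-34255467 and chr19:34255388-34255417 on the minus strand. The matches, in capitals, are at positions -84 and -34 from the RefSeq start. Both lie downstream of another annotated start of Acta2.
Myl9: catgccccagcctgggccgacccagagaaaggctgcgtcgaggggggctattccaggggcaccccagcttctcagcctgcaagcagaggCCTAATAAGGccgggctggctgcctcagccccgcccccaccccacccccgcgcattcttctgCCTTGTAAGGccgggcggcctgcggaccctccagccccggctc
Acta2, first window: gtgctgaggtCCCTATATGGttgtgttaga
Acta2, second window: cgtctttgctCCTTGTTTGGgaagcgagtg

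2 short motifs of vascular regulators were also counted in the same 8 entries. CATTCC, the core bound by TEAD factors, was in Acta2 and Abcc9 and in 14.7% of all promoters. TGGGAA, the core bound by RBPJ in Notch signalling, was in Acta2, Kcnj8 and Abcc9 and in 25.6% of all promoters. The matches of Abcc9 overlapped each other, and the TGGGAA of Acta2 overlapped its looser CArG match at position -34. A match here describes letters of the reference and not binding.

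The remaining contractile genes were scarce. Des encodes desmin, the intermediate filament of muscle cells, which also marks pericytes, and it stood at 1.33, 0.971 and 1.24 CPM in OIR-CIH and at 1.36, 1.89 and 0.754 CPM in OIR-Norm. With a log2 fold change of -0.17 (95% interval -0.86 to 0.52, edgeR adjusted p = 0.861), Des had the smallest fitted difference of the 10, and without OIR-Norm replicate 2 its direction turned, to 0.16. Cnn1 encodes calponin, an actin-binding inhibitor of myosin, and had only 8, 3 and 12 counts in OIR-CIH and 11, 30 and 13 counts in OIR-Norm, or 0.314, 0.104 and 0.318 CPM against 0.357, 1.05 and 0.408 CPM. It was the only member with groups that did not overlap, 1 of 10 genes where 9.26% of all genes tested were lower without overlap. The gap between the groups was small, 0.318 against 0.357 CPM, and the log2 fold change of -1.26 (95% interval -2.44 to -0.082, edgeR adjusted p = 0.356) rests on few counts.

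Tagln encodes transgelin, an actin cross-linking protein, and was at 0.235, 0.485 and 0.185 CPM in OIR-CIH and at 0.454, 0.386 and 0.377 CPM in OIR-Norm. Unlike the others, its highest library was OIR-CIH replicate 2. Each library had 6 to 14 counts of Tagln, and the log2 fold change was -0.44 (95% interval -1.46 to 0.57, edgeR adjusted p = 0.729). In the GENCODE M21 annotation, 1241 of its 1988 exon bases lie opposite the antisense gene Gm48529, which had 13 to 30 counts per library. The library kit was stranded, but which strand column was kept is not stated in the sources used here. How reads over the shared bases were counted is therefore not known, nor is their part in the low counts of Tagln.

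Per kilobase of exon, the order of the levels was led by the same 4 genes in both groups. Mean levels in OIR-CIH were 16.7 CPM per kb for Rgs5, 8.03 for Myl9, 3.55 for Acta2 and 0.587 for Kcnj8, followed by Abcc9 at 0.335, Des at 0.315, Cspg4 at 0.277, Myh11 at 0.225, Tagln at 0.152 and Cnn1 at 0.0896 CPM per kb. In OIR-CIH the ranges of neighbours did not overlap from Rgs5 down to Abcc9, and overlapped for each neighbouring pair after it. In OIR-Norm, Rgs5 led with 25.4 CPM per kb, then Myl9 with 10.0, Acta2 with 5.08, Kcnj8 with 0.852, Abcc9 with 0.659 and Myh11 with 0.51 CPM per kb. There, Myl9 and Acta2 overlapped, as did every neighbouring pair from Kcnj8 down. Myh11 was sixth in OIR-Norm and eighth in OIR-CIH, but within overlapping ranges in both.

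The mural genes varied together across libraries, and mostly within OIR-Norm. OIR-Norm replicate 2 was the highest of the 6 libraries in 9 of the 10 genes, as it was in 20.3% of the 14800 genes with a mean of at least 1 CPM. OIR-Norm replicate 3 was the lowest of the 6 in 6 of the 10, against 14.2% of those genes. In 8 of the 10 the order within OIR-Norm was replicate 2, then 1, then 3, against 16.1%. These counts describe the libraries, were made after the values had been seen, and are not independent across genes that share cells. The highest OIR-Norm library exceeded the lowest more than 2-fold in 9 of the 10 genes but in 2.43% of the genes with a mean of at least 1 CPM, with a median ratio of 2.74 for the members and 1.17 for those genes. Within OIR-CIH the median ratio of highest to lowest was 1.45 for the members and 1.16 for those genes. OIR-Norm replicates 1 and 2 were both above every OIR-CIH library in 8 of the 10 members, against 16.3%. Tagln and Cnn1 are themselves below that mean. Among the other 8 members, OIR-Norm replicate 2 was highest in 8 and OIR-Norm replicate 3 lowest in 6, the 2-fold ratio was exceeded in 8, and replicates 1 and 2 were above every OIR-CIH library in 7.

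Leaving out single libraries moved the fold changes accordingly. Without OIR-Norm replicate 2, 7 of the 10 genes were fitted lower, 0 were called, where 0.264% of all genes were, and the median log2 fold change was -0.14. Without OIR-Norm replicate 3, all 10 were fitted lower with a median of -0.82, 8 had an unadjusted p under 0.05, where 7.27% of all genes were lower at that level, and 1, Myh11, was called, where 0.531% of all genes were. Leaving out any OIR-CIH library or OIR-Norm replicate 1 kept all 10 fitted lower, with medians from -0.67 to -0.43 and 0 called. The share of all genes called was 0.177%, 0.284% and 0.285% without OIR-CIH replicates 1, 2 and 3, and 0.376% without OIR-Norm replicate 1. Over the 120 fits of a member with an alternative setting, 117 were fitted lower, and the 3 others were Acta2, Des and Cspg4 without OIR-Norm replicate 2.

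**Figure D2:**
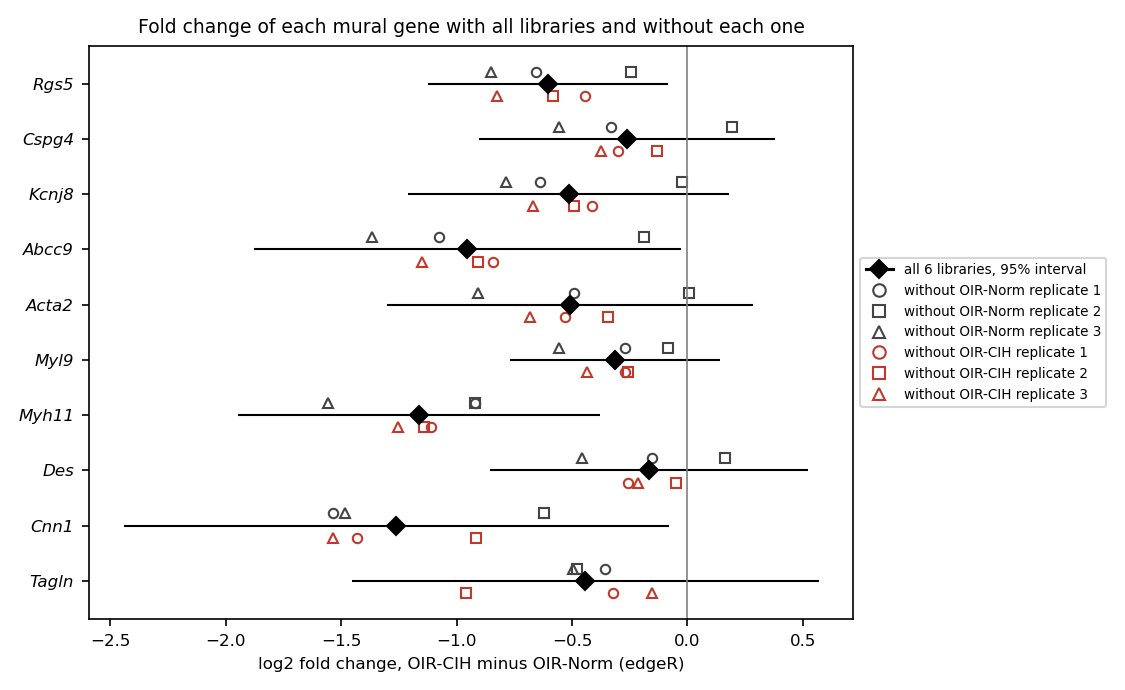
Fitted log2 fold change of OIR-CIH relative to OIR-Norm for each mural gene, on a linear axis. Filled diamonds with lines are the edgeR values of all 6 libraries with their 95% intervals, and open symbols are the values without each library, grey above the line for OIR-Norm and red below it for OIR-CIH. Squares in grey, the fits without OIR-Norm replicate 2, lie nearest to 0 or past it for Rgs5, Cspg4, Kcnj8, Abcc9, Acta2, Myl9, Myh11, Des and Cnn1.

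Genes of a further pericyte list were divided in direction. Of 20 further pericyte genes, all tested, 0 were called, 12 were fitted lower and 8 higher, and the median log2 fold change was -0.13. Their summed level, between 986 and 1133 CPM, was far above the 64.1 to 186 CPM of the 4 pericyte members. How much of that level came from cells other than mural cells was not tested, so the divided direction may not be that of pericytes. 4 of the 20 had an unadjusted edgeR p under 0.05, 3 of them lower, where 13.2% of all genes tested did. Groups did not overlap in 2 of the 20, both lower in OIR-CIH, where 9.26% of all genes tested were lower without overlap. The 4 with the lowest adjusted p were Ednra, Tbx18, Cox4i2 and Pde5a. Ednra, the endothelin receptor through which endothelin constricts mural cells, stood at 1.53, 1.28 and 2.01 CPM in OIR-CIH and 2.18, 3.09 and 2.33 CPM in OIR-Norm without overlap (log2 fold change -0.64, edgeR adjusted p = 0.292). Tbx18, a transcription factor of mural cells, had at most 15 counts in any library and was listed at 0 in 1, with a log2 fold change of -2.23 (edgeR adjusted p = 0.327). Pde5a, the phosphodiesterase that degrades cyclic GMP in contractile cells, stood at 7.53, 7.25 and 7.07 CPM in OIR-CIH and 13.6, 12.6 and 5.62 CPM in OIR-Norm (log2 fold change -0.54, edgeR adjusted p = 0.376). Like Myh11, Pde5a was high in OIR-Norm replicates 1 and 2 and lowest in OIR-Norm replicate 3, and it was called when that library was left out. Cox4i2, a hypoxia-regulated subunit of cytochrome c oxidase, was fitted higher, with a log2 fold change of 0.22 (edgeR adjusted p = 0.351).

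The receptors that recruit and specify mural cells were among those 20, and are named here after their values were seen. Pdgfrb, the PDGF-B receptor of pericytes, stood at 11.97, 13.3 and 15.0 CPM in OIR-CIH and 14.3, 18.5 and 10.5 CPM in OIR-Norm, with a log2 fold change of -0.099 (edgeR adjusted p = 0.850). Notch3 stood at 5.73, 5.82 and 8.07 CPM in OIR-CIH and 8.21, 13.4 and 4.87 CPM in OIR-Norm, with a log2 fold change of -0.42 (edgeR adjusted p = 0.555). Both had their highest level in OIR-Norm replicate 2 and their lowest in OIR-Norm replicate 3, and Notch3 spread more widely than Pdgfrb.

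Of 20 further contractile genes, 19 were tested and 0 were called, with 12 fitted lower, 7 higher and a median log2 fold change of -0.14. Pln, which encodes phospholamban, had too few counts. Pcp4l1 was fitted higher in OIR-CIH, at 182, 153 and 167 CPM against 142, 108 and 128 CPM (log2 fold change 0.41, edgeR adjusted p = 0.146), with no overlap. Vcl and Flna, the focal adhesion protein vinculin and the actin cross-linker filamin A, were lower without overlap, with log2 fold changes of -0.36 (edgeR adjusted p = 0.247) and -0.26 (edgeR adjusted p = 0.309). They were the only 2 of the 19 lower without overlap, where 9.26% of all genes tested were. Ppp1r14a, an inhibitor of myosin phosphatase in smooth muscle, had a log2 fold change of 0.39 (edgeR adjusted p = 0.559) with overlapping groups. Several of these genes are expressed widely outside muscle, and their summed level, between 842 and 988 CPM, was far above the 14.5 to 41.4 CPM of the 6 contractile members.

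Among 12 signals of mural recruitment, 1 was called. Jag1, a Notch ligand that endothelial and neural cells present, stood at 95.6, 89.3 and 88.5 CPM in OIR-CIH and at 131, 132 and 125 CPM in OIR-Norm. The libraries within each group lay close together and the groups were well apart. Jag1 fell by 0.50 on the log2 scale (edgeR adjusted p = 0.00541), just past the minimum fold change, and it was no longer called without OIR-CIH replicate 2, OIR-CIH replicate 3 or OIR-Norm replicate 2. Of the 12 signals, 10 were fitted lower, with a median log2 fold change of -0.22. Pdgfb, the ligand that recruits pericytes, is given here after its values were seen: it stood at 3.85, 4.40 and 6.25 CPM in OIR-CIH and at 5.58, 12.3 and 3.77 CPM in OIR-Norm, with a log2 fold change of -0.56 (edgeR adjusted p = 0.509). Unlike Jag1, Pdgfb followed the library pattern of the mural genes, with OIR-Norm replicate 2 highest and OIR-Norm replicate 3 lowest.

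Endothelial markers were also highest in OIR-Norm replicate 2 for the most part. Of 12, 0 were called, 9 were fitted lower and 3 higher, and the median log2 fold change was -0.28. OIR-Norm replicate 2 was the highest library in 9 of the 12, and OIR-Norm replicate 3 the lowest in 7. Their summed level was 297 to 342 CPM in OIR-CIH and 298 to 402 CPM in OIR-Norm. Flt1, the VEGF receptor with the highest ligand affinity, had a log2 fold change of -0.24 (edgeR adjusted p = 0.331), Vwf, the von Willebrand factor, -0.89 (edgeR adjusted p = 0.370), Cdh5, the cadherin of endothelial junctions, -0.64 (edgeR adjusted p = 0.497) and Esam, an endothelial adhesion molecule, -0.34 (edgeR adjusted p = 0.487). Vwf ranged most widely, from 4.79 to 9.98 CPM in OIR-CIH and from 5.18 to 22.9 CPM in OIR-Norm. How much the amount of vessel tissue in each library contributed to the mural values was not tested.

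**Figure D3:**
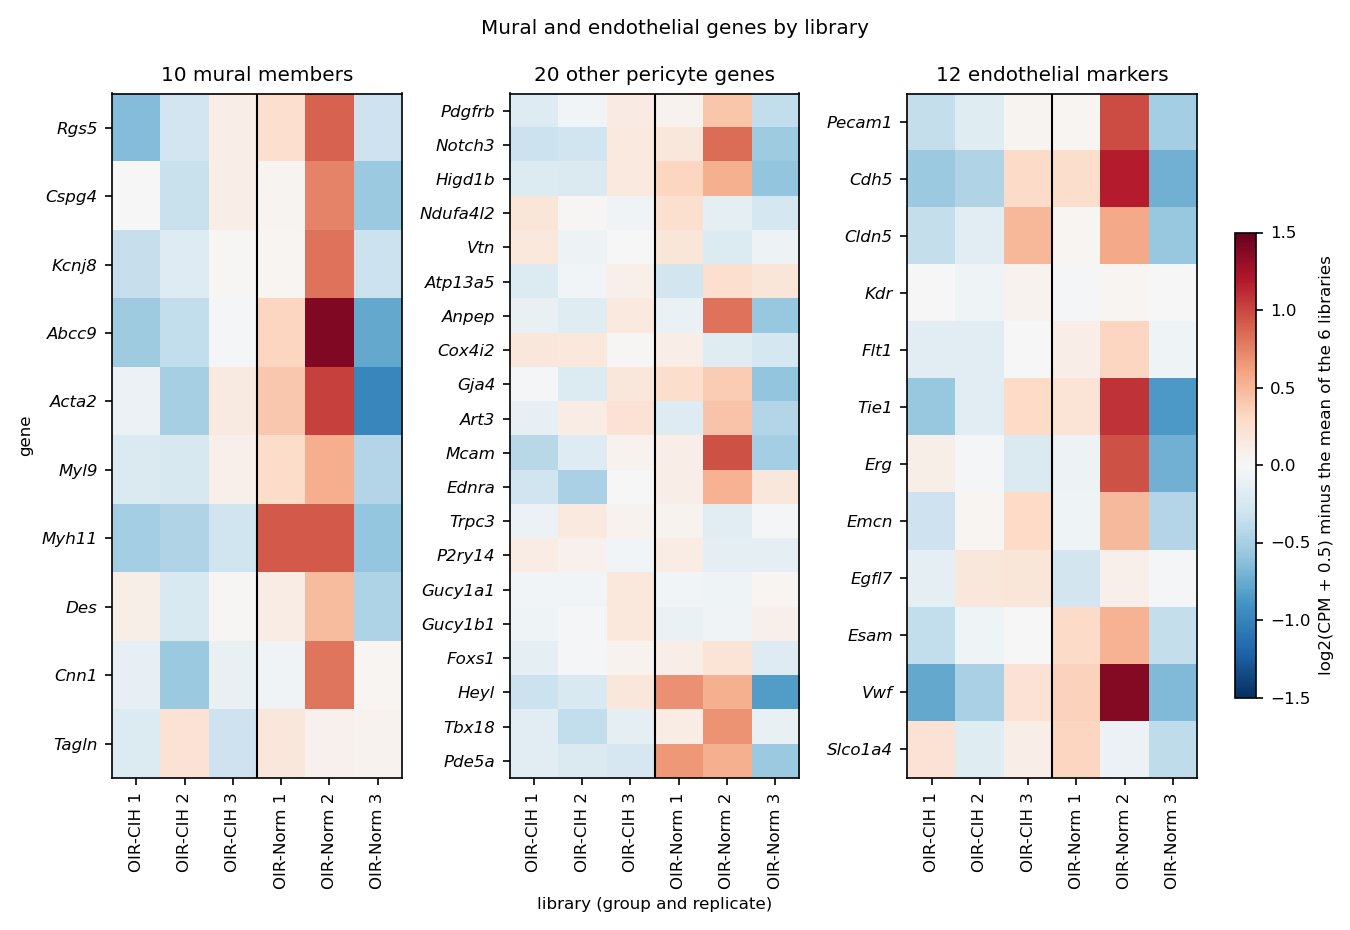
Heat map of log2(CPM + 0.5) minus the mean of the 6 libraries, for the 10 mural genes, 20 further pericyte genes and 12 endothelial markers (rows) in the 6 libraries (columns, OIR-CIH left of the line and OIR-Norm right of it). Red is above and blue below a gene's own mean. OIR-Norm replicate 2 holds the highest value of 9 of the 10 mural genes and of 9 of the 12 endothelial markers, and OIR-Norm replicate 3 the lowest of 6 and of 7.

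The genes with library profiles most like those of the mural genes included known vascular genes. The measure of likeness was the root mean square difference of the centred log2(CPM + 0.5) values over the 6 libraries, in 14792 genes with a mean of at least 1 CPM. Nearest to the mean profile of the 4 pericyte members were Mcam (0.052), Col5a2 (0.067), Notch3 (0.069), Pecam1 (0.075) and Col4a1 (0.078). Mcam is an adhesion molecule of mural and endothelial cells, Pecam1 an endothelial junction protein and Col4a1 a collagen chain of the vascular basement membrane. Mcam and Notch3 were also on the list of further pericyte genes and Pecam1 on that of endothelial markers. Nearest to the mean profile of the 6 contractile members were She (0.065), Zfp36l1 (0.075), Tlr2 (0.079), Epha2 (0.093) and Tmem252 (0.098). None of these 10 genes was called. The mean profile itself spanned 1.45 on the log2 scale for the pericyte members and 1.03 for the contractile members, in both cases from OIR-Norm replicate 3 at the bottom to OIR-Norm replicate 2 at the top.

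Markers of other tissues in which contractile genes are found were read in the same libraries. The fibroblast list summed to 39.2 to 49.6 CPM in OIR-CIH and to 70.7 to 91.7 CPM in OIR-Norm without overlap, and 7 of its 8 genes were fitted lower. 1 of the 8, Pcolce, an enhancer of procollagen processing and the most abundant of the list, was called: it stood at 22.5, 16.7 and 18.6 CPM in OIR-CIH and at 43.6, 41.7 and 40.9 CPM in OIR-Norm, and fell by 1.13 on the log2 scale (edgeR adjusted p = 0.000211). Unlike the mural genes, Pcolce was as high in OIR-Norm replicate 3 as in the other OIR-Norm libraries. Pcolce made up much of the summed fibroblast level, and the separation of the sum rests on it: the sum of the other genes overlapped between the groups. Of the 8 genes, 3 were lower without overlap, where 9.26% of all genes tested were. Erythrocyte genes summed to 61.3, 56.2 and 75.2 CPM in OIR-CIH and to 108.5, 115 and 52.1 CPM in OIR-Norm, with OIR-Norm replicate 3 lowest and replicates 1 and 2 above all OIR-CIH libraries, as for the summed level of the 6 contractile members. The most abundant of the 5, the beta globin gene Hbb-bs, had a log2 fold change of -0.51 (edgeR adjusted p = 0.303), and 0 of the 5 were called. Whether the amount of blood in the tissue had a part in the mural values was not tested.

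Skeletal muscle markers, which would come with extraocular muscle, were near the floor: 11 genes summed to 8.79 to 9.61 CPM in OIR-CIH and to 7.41 to 9.12 CPM in OIR-Norm, 5 were at 0 in at least 1 library, and 0 of the 8 tested were called. The most abundant, Mylpf, stood at 3.55 to 4.98 CPM over the 6 libraries. Of 6 cardiac muscle genes, Tnnt2 was called, at 4.63, 4.85 and 3.07 CPM in OIR-CIH and 9.22, 9.93 and 13.4 CPM in OIR-Norm (log2 fold change -1.38, edgeR adjusted p = 0.00712), and it was the most abundant of the list. OIR-Norm replicate 3 was highest for Tnnt2, where it was lowest for most mural genes. Pigment epithelium markers summed to 275 to 407 CPM in OIR-CIH and 179 to 363 CPM in OIR-Norm, with 0 of 8 called, and the most abundant, Ttr, stood at 147 to 216 CPM in OIR-CIH and 86.3 to 134 CPM in OIR-Norm (log2 fold change 0.75, edgeR adjusted p = 0.103). Lens markers, 7 of 8 of them in the table, had the highest of 6 libraries in OIR-Norm replicate 2 in all 7, led by Cryaa with 173 CPM there and 4.39 to 30.0 CPM elsewhere (log2 fold change -2.13, edgeR adjusted p = 0.371). Whether lens tissue had a part in the mural values of OIR-Norm replicate 2 was not tested.

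**Figure D4:**
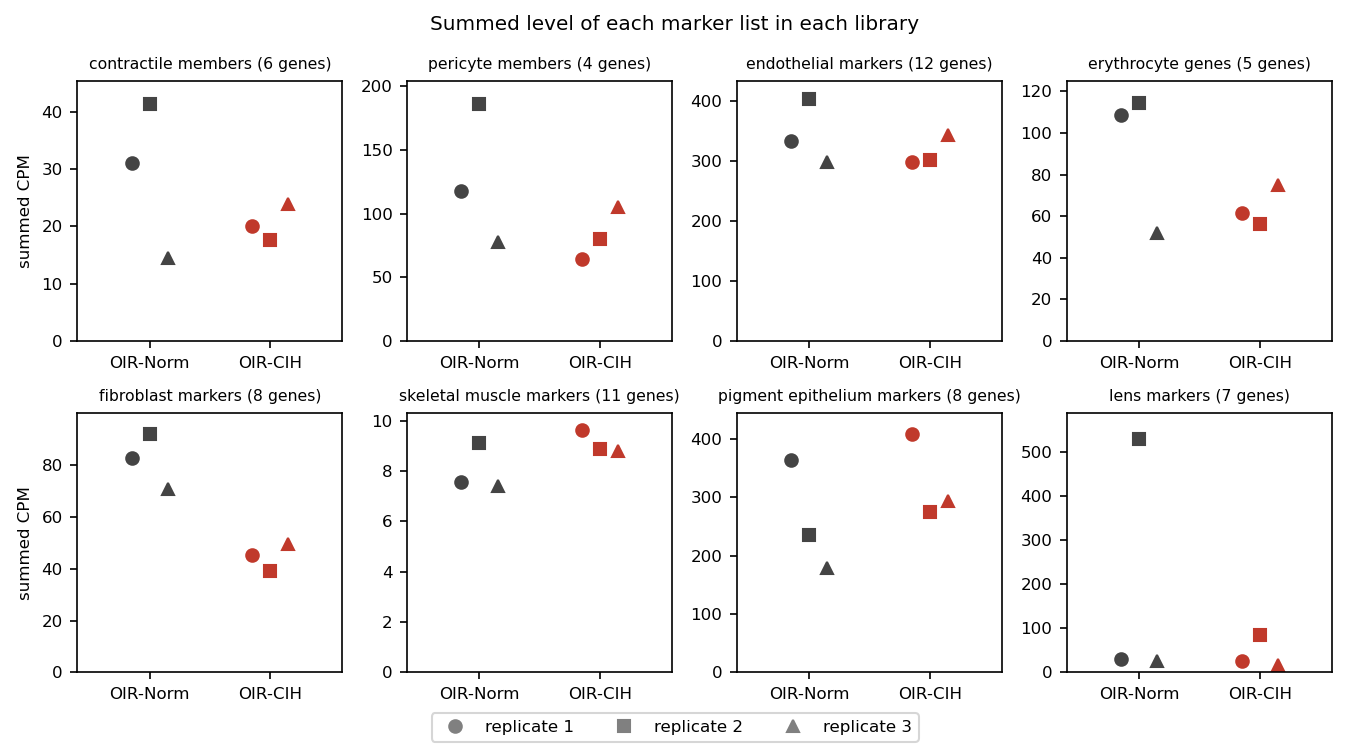
Summed TMM-scaled CPM of each marker list in each library, on linear axes from 0 with a scale per list. Points are libraries, with a shape for each replicate number. Every list but that of the pigment epithelium has the OIR-Norm libraries in the order replicate 2, then 1, then 3. The summed fibroblast list separates the groups (39.2 to 49.6 against 70.7 to 91.7 CPM). Without Pcolce, its most abundant gene, the groups would overlap. The lens list is high in OIR-Norm replicate 2 alone (528 CPM).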

How the data were processed

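Retinal poly(A) RNA of 6 libraries was sequenced from 250 ng of total RNA each with a stranded kit. The authors aligned reads with STAR 2.7.9a and deposited raw counts per gene. The study's methods name Ensembl 105, whereas the submitters' processing notes name GRCm38, and no coordinates were needed for the counts. Exon lengths and antisense overlaps came from GENCODE M21 by gene identifier, with 32158 of 32285 identifiers matched. Genes with 10 or more counts in total were tested with edgeR 4.0.16 (quasi-likelihood, TMM, Benjamini-Hochberg over 20021 genes) in R 4.3.3. The methods were tested on simulated data. Alternatives were DESeq2 1.42.0, limma 3.58.1 on log2(CPM + 0.5), median-of-ratios scaling, other filters, leaving out each library, a replicate block and a threshold with no fold change minimum. Members and gene lists were chosen with earlier results of these data known. Named genes were all members, the called genes or otherwise the 4 with the lowest adjusted p of the contractile, pericyte, recruitment and endothelial lists, the called genes and the most abundant gene of each list of another cell type, and the 5 most alike genes per profile; 1 gene of the retinal marker list is not reported here, and Sag, Glul, Pdgfrb, Notch3, Pdgfb, Xist, Ddx3y and the paralogues of Acta2 were named after their values were seen. An exact permutation test of 3 against 3 cannot go below 0.1, so none was used.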

Additional observations from a re-analysis of the deposited data

How the results depend on the processing

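The number of mural genes called was 0 in the reported fit, 1 with DESeq2, 2 with every gene of at least 1 count, and from 0 to 1 when single libraries were left out. Calls over all genes tested numbered 63, and were 135 with DESeq2, 213 with every gene of at least 1 count and from 35 to 104 when single libraries were left out, the lowest without OIR-CIH replicate 1 and the highest without OIR-Norm replicate 3. In the further contractile, pericyte and recruitment lists 1 gene was called, and from 0 to 2 when single libraries were left out. Why these counts moved was not tested. The median log2 fold change of the members was -0.51, and -0.32 with limma, whose added 0.5 CPM shrinks low genes. The fit with a replicate block gave 84 calls, 60 of them shared with the 63, 0 mural genes called and a median of -0.46. The deviations of same-numbered libraries had correlations of 0.104, 0.0989 and -0.181, and those of other pairs ranged from -0.282 to 0.167. No pairing by number was seen, but so few libraries cannot decide whether the numbers pair them. The cause of the turned directions without OIR-Norm replicate 2 (Acta2 0.0065, Des 0.16, Cspg4 0.19) was not tested. Counts of 3 to 30 limit Cnn1, and of 6 to 14 Tagln, for which DESeq2 gave no adjusted p.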

Other observations

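The level of each mural gene was also read relative to Pecam1, an endothelial junction gene, a ratio chosen after the values had been seen and given without a test. Kcnj8 stood in nearly the same ratio to Pecam1 everywhere, from 0.134 to 0.142 in OIR-CIH and from 0.141 to 0.155 in OIR-Norm. Kcnj8 is part of the mean pericyte profile, for which Pecam1 was among the nearest genes, so this ratio is not a separate result. Rgs5 was 6.08, 6.93 and 7.73 times the Pecam1 level in OIR-CIH and 8.72, 6.82 and 8.71 times in OIR-Norm, so that the high OIR-Norm replicate 2 of the CPM values lay within the range of OIR-CIH and OIR-Norm replicate 3 did not. Myh11 stood at 0.167, 0.157 and 0.153 of Pecam1 in OIR-CIH and at 0.411, 0.208 and 0.177 in OIR-Norm, without overlap, although the CPM values overlapped. The gap was small, 0.167 against 0.177, and these 2 ratios rest on 40 and 47 counts of Myh11. How often a ratio to Pecam1 separates the groups over all genes was not examined. Acta2 stood at 0.858, 0.556 and 0.756 of Pecam1 in OIR-CIH and at 0.932, 0.733 and 0.494 in OIR-Norm, with overlap. Des stood at 0.142, 0.0915 and 0.0996 of Pecam1 in OIR-CIH and at 0.111, 0.0776 and 0.0906 in OIR-Norm, and Cspg4 at 0.372, 0.252 and 0.301 in OIR-CIH and at 0.292, 0.253 and 0.264 in OIR-Norm. In both the highest ratio was in OIR-CIH replicate 1, so these members did not share the order of Myh11. Abcc9 stood at 0.247, 0.248 and 0.278 in OIR-CIH and at 0.371, 0.414 and 0.226 in OIR-Norm, and Myl9 at 0.925, 0.807 and 0.860 in OIR-CIH and at 1.01, 0.619 and 0.891 in OIR-Norm, with overlap in both. The scarce Cnn1 and Tagln, at 0.0098 to 0.0491 and 0.0148 to 0.0458 of Pecam1 over the 6 libraries, also overlapped between the groups.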
